A study of Mus musculus with 2 samples.

Results

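The promoters shared by divergent gene pairs were examined in chromatin of the mouse urinary bladder. A pair was formed by 2 autosomal protein-coding genes on opposite strands, lying head to head, whose most upstream transcription start sites (TSSs) in the GENCODE M21 annotation of the build mm10 were 0 to 1000 bp apart. Its region ran from 200 bp outside one TSS to 200 bp outside the other. There were 735 such pairs. They held 1450 genes, which is 6.97% of the 20807 autosomal protein-coding genes, and 20 of these genes belonged to 2 pairs each, so that 40 pairs share a gene with a neighbour. The 2 TSSs were a median of 128 bp apart (quartiles 66 and 240 bp), and 603 pairs (82.0%) lay within 300 bp. The regions measured 401 to 1388 bp, with a median of 529 bp.

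Accessibility was measured by DNase-seq, in which the nuclease DNase I cuts DNA that is free of nucleosomes and the cut ends are sequenced. The tissue came from B6CASTF1/J males, first-generation hybrids of the inbred strains C57BL/6J and CAST/EiJ, at 14 days of age, and both libraries share this genotype, sex and age. The label of replicate 1 names a male, in the singular, and that of replicate 2 names 3 males pooled; they form 1 group with no treatment or other condition. With 2 libraries an exact sign-flip permutation test cannot give a two-sided p below 0.5, so values of both replicates are set side by side without a test. The whole bladder is a mixture of cell types, and a weak peak may be a site open in few cells or a site cut little in many, which cannot be told apart. Each library came with a looser and a stricter list of peaks, a list of footprints, which are short stretches inside open chromatin that are protected from cutting, and a track giving the false discovery rate (FDR) of the cut rate along the genome. The looser lists held 139821 peaks in replicate 1 and 82225 in replicate 2, and the footprint lists 331596 and 200630 footprints. The deposited signals come in equal steps, of 0.00521 in replicate 1 and 0.00799 in replicate 2. Were each step 1 cut and both libraries scaled to an equal total, which no label records, replicate 1 would be 1.54 times as deep. Of the marker genes used to check the labelled tissue, 6 of 6 for urothelium and 6 of 6 for smooth muscle had a peak of both replicates within 1000 bp of a TSS, against 0 of 6 genes of liver, heart, skeletal muscle and brain.

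A bidirectional promoter is a stretch of DNA from which RNA polymerase II starts in both directions, giving a gene on each strand. Such promoters are usually rich in CpG dinucleotides and poor in TATA boxes, and many serve genes that all cells use, such as those for DNA repair, mitochondrial proteins and RNA processing. The short gap between the starts carries binding sites of factors such as NRF1, GABPA and NFY, which can act on both genes.

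The gaps between the 2 TSSs of 8 pairs show what these regions look like on the DNA. They were chosen as the pairs of the strongest peaks with a short gap, a mitochondrial, a textbook and a histone pair, and 2 pairs without a peak. Each sequence is read 5′ to 3′ on the + strand of GRCm38.p6, which is the build mm10, from the base after the TSS of the gene named first (- strand) to the base before the TSS of the gene named second (+ strand). Capitals mark bases that lay in footprints of both replicates.
Hjurp/Trpm8, chr1:88277634-88277660: ggggagggacgagagggagggtccgcc
Pdhx/Apip, chr2:103073514-103073674: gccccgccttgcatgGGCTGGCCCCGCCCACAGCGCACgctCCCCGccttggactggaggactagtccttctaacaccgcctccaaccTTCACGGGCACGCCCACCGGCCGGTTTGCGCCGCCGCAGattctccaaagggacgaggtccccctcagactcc
Med22/Rpl7a, chr2:26910678-26910763: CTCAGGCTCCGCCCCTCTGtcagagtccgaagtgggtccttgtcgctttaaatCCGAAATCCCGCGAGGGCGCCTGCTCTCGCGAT
Wdr4/Ndufv3, chr17:31519981-31520114: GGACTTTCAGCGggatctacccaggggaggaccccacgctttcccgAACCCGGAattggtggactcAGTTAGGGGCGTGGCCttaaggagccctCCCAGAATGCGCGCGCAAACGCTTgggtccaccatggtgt
Brca1/Nbr1, chr11:101551956-101552148: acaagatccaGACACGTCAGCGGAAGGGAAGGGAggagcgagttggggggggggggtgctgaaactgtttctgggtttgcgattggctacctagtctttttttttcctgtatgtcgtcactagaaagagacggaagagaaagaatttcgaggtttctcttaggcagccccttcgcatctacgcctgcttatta
Hist1h2bf/Hist1h2ad, chr13:23574197-23574380: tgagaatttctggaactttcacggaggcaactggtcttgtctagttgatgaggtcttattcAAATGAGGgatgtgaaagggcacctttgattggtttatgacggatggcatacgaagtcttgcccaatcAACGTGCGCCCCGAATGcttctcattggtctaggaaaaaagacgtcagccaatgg
Rnf151/Rps2, chr17:24718064-24718115: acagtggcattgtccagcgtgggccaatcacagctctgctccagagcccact
Patl2/Terb2, chr2:122186190-122186271: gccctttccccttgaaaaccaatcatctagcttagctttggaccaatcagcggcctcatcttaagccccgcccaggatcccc
In Pdhx/Apip, 67 of the 161 bases lay in shared footprints and in Med22/Rpl7a 52 of 86. The gap of Hjurp/Trpm8 held none in its 27 bases, although its region had 4 shared footprints outside the gap. Rnf151/Rps2 and Patl2/Terb2, which had no peak, hold CCAAT boxes, the binding word of NFY, but no footprint.

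A region was called open where it touched a peak of the looser list by at least 1 bp in both replicates. By this rule 700 of the 735 pair regions (95.2%) were open, against 57.1% of all autosomal protein-coding promoters. Another 6 pairs (0.816%) had a peak in 1 replicate, against 5.56% of all promoters and 5.79% of the single promoters described next, and 29 (3.95%) had none. In replicate 1 alone 704 pairs (95.8%) had a peak and in replicate 2 alone 702 (95.5%). The comparison set was 15414 single promoters, those of genes in no pair with no other annotated gene starting within 2000 bp, measured from 328 bp upstream to 200 bp downstream of the TSS. Of these 50% were open in both replicates, with 54.9% in replicate 1 and 50.96% in replicate 2. The pairs exceeded them by 40.9 percentage points in replicate 1 and by 44.6 in replicate 2, a mean of 42.7 ± 2.58 (SD, n = 2).

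Base composition differed between the kinds of promoter, so openness was also compared within classes of CpG richness. Of the pairs, 639 (86.9%) were CpG-rich, with a GC content of at least 50% and an observed over expected CpG ratio of at least 0.6, against 38.6% of single promoters. The median ratio was 0.829 at pairs and 0.445 at single promoters. Among CpG-rich promoters 98.4% of the pairs and 92.5% of the single promoters were open. Among the others 71 of 96 pairs (74.0%) were open, against 23.3% of single promoters. In this second class the composition was not matched. The median CpG ratio was 0.532 at pairs and 0.222 at single promoters, and the median GC content 54.9% and 48.6%. A peak in 1 replicate was found at 3 CpG-rich and 3 other pairs, beside 3.24% and 7.40% of single promoters of these kinds. The difference in open share was thus 5.92 percentage points within the CpG-rich class, for both replicates together. Among the others it was 46.5 points in replicate 1 and 50.6 in replicate 2. The part of base composition in these differences was not tested. By distance, 96.7% of pairs with TSSs up to 100 bp apart were open, 93.5% over 100 to 200 bp, 96.9% over 200 to 300 bp and 98.4% over 300 to 500 bp. The share was 88.2% over 500 to 1000 bp, where only 57.4% of pairs were CpG-rich.

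The strongest peak of a pair region had a median signal of 7.83 in replicate 1 and 6.76 in replicate 2, over the 700 open pairs. At open single promoters the medians were 4.41 and 3.69. The ratio of medians was 1.78 in replicate 1 and 1.83 in replicate 2, a mean of 1.80 ± 0.0381 (SD, n = 2). Within CpG-rich promoters it was 1.46 in both, from 8.23 and 7.003 at pairs and 5.65 and 4.80 at single promoters. In the remaining promoters the pairs had medians of 5.61 and 4.21 and the single promoters 2.02 and 1.61. The median pair amounted to 1501 of the signal's steps in replicate 1 and to 843 in replicate 2. With steps taken as cuts, the Poisson 95% interval of the signal is 7.42 to 8.22 in replicate 1 and 6.29 to 7.21 in replicate 2, for counting error only. The signal rose with distance up to 500 bp: the replicate 1 medians were 7.29, 8.19, 8.69, 9.57 and 7.59 from the closest to the widest class, and those of replicate 2 were 6.26, 7.09, 7.19, 7.75 and 6.38. The order of the classes was the same in both replicates. The regions also lengthen with distance, with medians of 458, 545, 644, 750.5 and 1068.5 bp. The strongest peak was thus taken from more DNA in the wider classes, and the part of this in the rise was not tested.

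**Figure D1:**
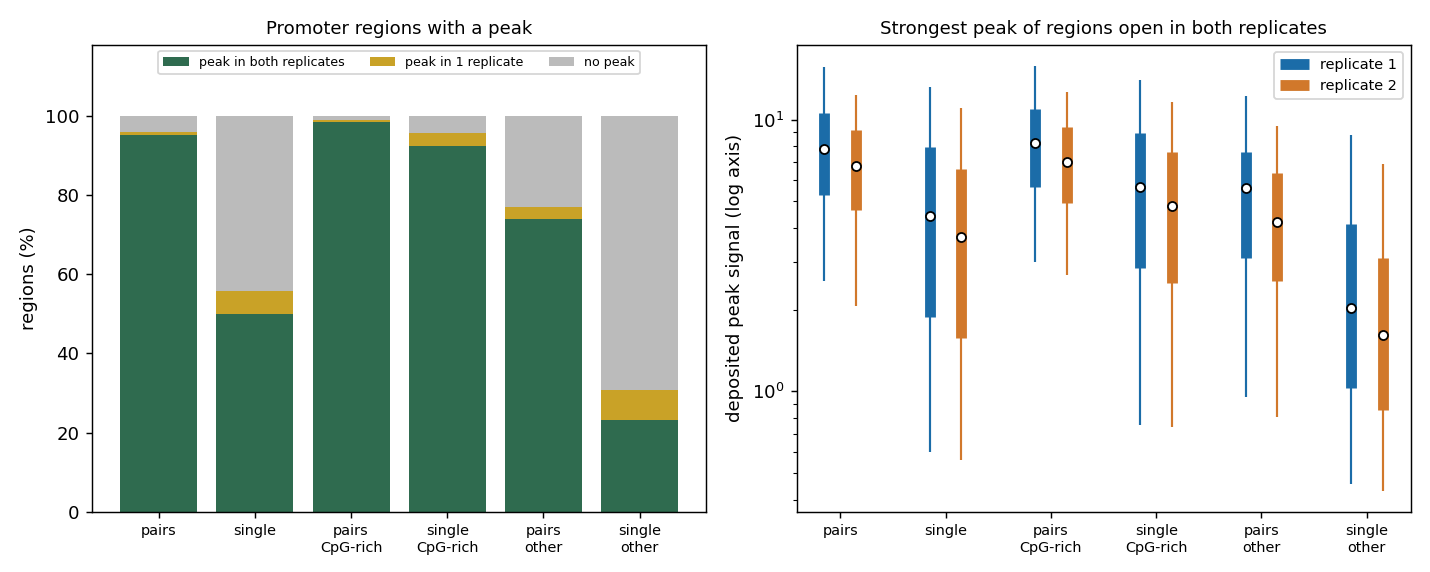
The left plot gives the percentage of regions with a peak in both replicates, in 1 replicate or in none, for pairs and single promoters, also split by CpG richness. The right plot gives the signal of the strongest peak on a log axis (circle, median; thick bar, quartiles; thin line, 5th to 95th percentile of open regions): pair medians of 7.83 and 6.76 lie above the single promoter medians of 4.41 and 3.69.

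The strongest pair was Hjurp/Trpm8, with a signal of 40.7 in replicate 1 and 32.1 in replicate 2. Hjurp encodes the chaperone that loads the centromeric histone CENP-A, and Trpm8 the cold and menthol receptor channel. Their TSSs are 28 bp apart and lay in the same peak in both replicates. The Trpm8 start used here belongs to a transcript that is not annotated as protein-coding, and the first protein-coding transcript of Trpm8 starts 25622 bp away, so these genes would form no pair with starts of protein-coding transcripts alone. By the mean over both replicates Fbh1/Ankrd16 followed with 22.2 and 20.8, where Fbh1 encodes a DNA helicase. Pdhx/Apip, the higher of these in replicate 1, had 24.7 and 15.7. Pdhx is a subunit of the pyruvate dehydrogenase complex and Apip an enzyme of methionine salvage. Rita1/Ddx54, of which Ddx54 is an RNA helicase, had 22.2 and 13.2. That peak lay downstream of the Ddx54 TSS, and the peak over the gap between the TSSs had 9.59 and 7.35. Med22/Rpl7a, a subunit of Mediator and a protein of the large ribosomal subunit, had 20.04 and 14.1. Zfp654/Cggbp1 had 20.2 and 14.0, and Fam53a/Gm9903 19.7 and 14.7. Only 7 pairs exceeded 20 in replicate 1 and 2 pairs in replicate 2, and replicate 1 was the higher in all 7 of the pairs named here. Signals under 2 were found at 25 open pairs in replicate 1 and 33 in replicate 2, the weakest being Ifit1bl2/Ifit1, a pair of interferon-induced genes, with 0.344 and 0.416.

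Most open pairs had 1 peak that covered both TSSs. This was the layout of 399 pairs (57.0%) in replicate 1 and of 429 (61.3%) in replicate 2, and 378 pairs had it in both. Each TSS lay in a peak of its own at 68 and 58 pairs, and at 48 pairs in both replicates. A peak lay on 1 TSS only at 194 pairs in replicate 1 and 171 in replicate 2. At 39 and 42 pairs no TSS lay in a peak, and the strongest peak was wholly between the TSSs at 18 and 20 of these. The layout was the same in both replicates at 583 pairs (83.3%). It followed the distance, and the peaks themselves were narrow, with a median width of 200 bp in replicate 1 and 240 bp in replicate 2. In replicate 1 a single peak covered both TSSs at 89.6% of open pairs up to 100 bp apart, 57.2% over 100 to 200 bp, 23.7% over 200 to 300 bp, 6.35% over 300 to 500 bp and 0% beyond. In replicate 2 the shares were 91.9%, 67.4%, 26.9%, 7.94% and 0%. The pairs under 1 peak in both replicates had a median distance of 74 bp and none over 418 bp. The peak's centre lay between the TSSs at 69.0% of pairs in replicate 1 and 63.9% in replicate 2.

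**Figure D2:**
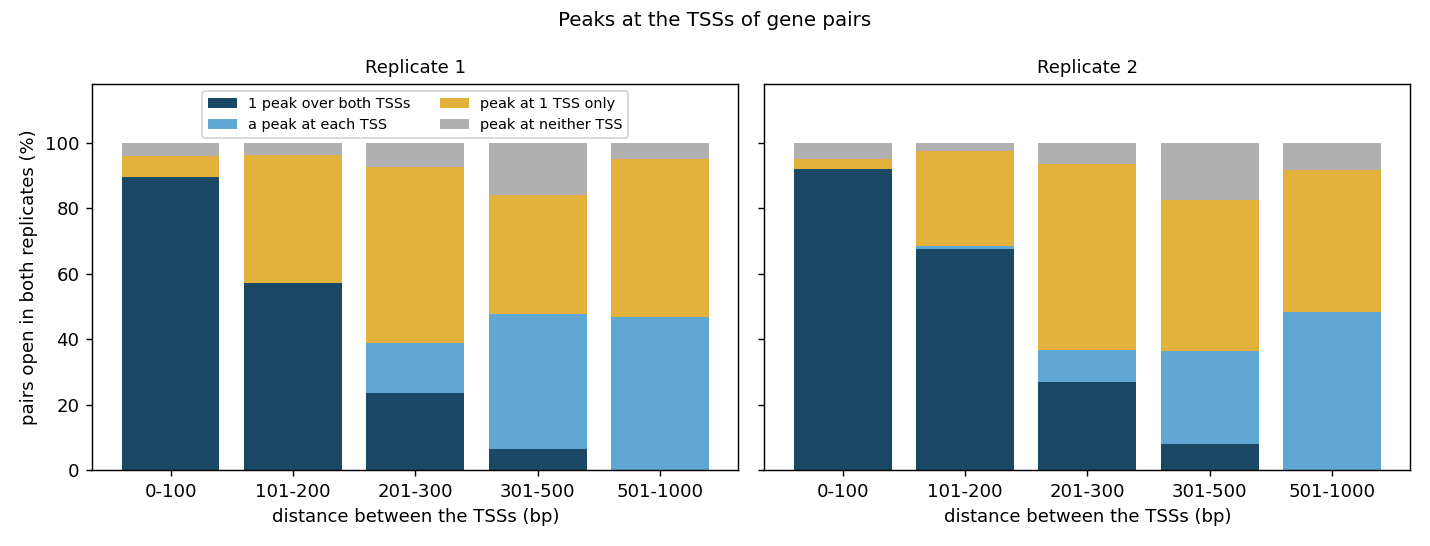
Bars give the percentage of the pairs open in both replicates whose TSSs lie in 1 peak, in a peak each, or with a peak at 1 or neither TSS, by the distance between the TSSs, for each replicate. The share with 1 peak over both TSSs falls from 89.6% and 91.9% in the closest class to 0% beyond 500 bp, and the share with a peak at each TSS is highest in the widest classes.

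Where the TSSs lay in separate peaks, the gene of the stronger peak was the same in both replicates at 44 of 48 pairs. These pairs had TSSs a median of 553 bp apart (223 to 987 bp), and their peaks were separated by a median of 190.0 bp in both replicates. At Pdcd10/Serpini1 the peak at Pdcd10, whose product is an adaptor of vascular integrity signalling, had 14.8 and 11.2, and the one at Serpini1, which encodes the serine protease inhibitor neuroserpin, 4.47 and 3.69. Myl12b/Myom1 had 5.86 and 5.42 at Myl12b, a myosin regulatory light chain of non-muscle and smooth muscle cells. At Myom1, the myomesin of the sarcomeric M band, it had 14.4 and 13.5. Cep57/Fam76b had 7.64 and 5.07 against 13.9 and 12.4. Ttc9c/Hnrnpul2 had 10.1 and 6.96 against 12.3 and 11.6. In each of these 4 pairs the same gene had the stronger peak in both replicates. Over all pairs with separate peaks in the replicate concerned, the median difference between the sides was 0.69 on the log2 scale in replicate 1 and 0.70 in replicate 2. It exceeded 1 at 27 of 68 and 21 of 58 pairs.

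The FDR track, which is not cut to the narrow width of peaks, joined more of the TSS pairs. A single stretch at an FDR of 0.001 or lower held both TSSs at 653 pairs (88.8%) in replicate 1 and at 633 (86.1%) in replicate 2. Of the pairs with a peak on 1 TSS only, the other TSS lay in the same stretch at 169 of 194 (87.1%) and 136 of 171 (79.5%). Of the pairs with separate peaks, 54 of 68 (79.4%) and 39 of 58 (67.2%) lay in 1 stretch. By distance the shares in replicate 1 were 95.8%, 92.0%, 93.8%, 90.6% and 39.7% of all pairs, and in replicate 2 they were 94.8%, 91.0%, 89.6%, 84.4% and 29.4%. Stretches over both TSSs had a median length of 880 bp in replicate 1 and 841 bp in replicate 2. Those over the TSS of single promoters had 650 and 630 bp (CpG-rich, 720 and 691 bp). The accessible DNA reached a median of 352 and 331 bp downstream of a pair's TSSs. At all single promoters it reached 355 and 346 bp downstream, and at the CpG-rich ones 396 and 374 bp. Upstream it reached 251 and 244 bp at all single promoters and 284 and 271 bp at the CpG-rich ones. Of all bases of the pair regions 86.4% and 84.3% were at an FDR of 0.001 or lower, against 38.4% and 34.9% of single promoters. Within the CpG-rich class the shares were 93.0% and 91.5% against 76.8% and 73.1%. The whole region was covered at 438 pairs (59.6%) in replicate 1 and 410 (55.8%) in replicate 2, against 12.7% and 10.96% of single promoters.

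**Figure D3:**
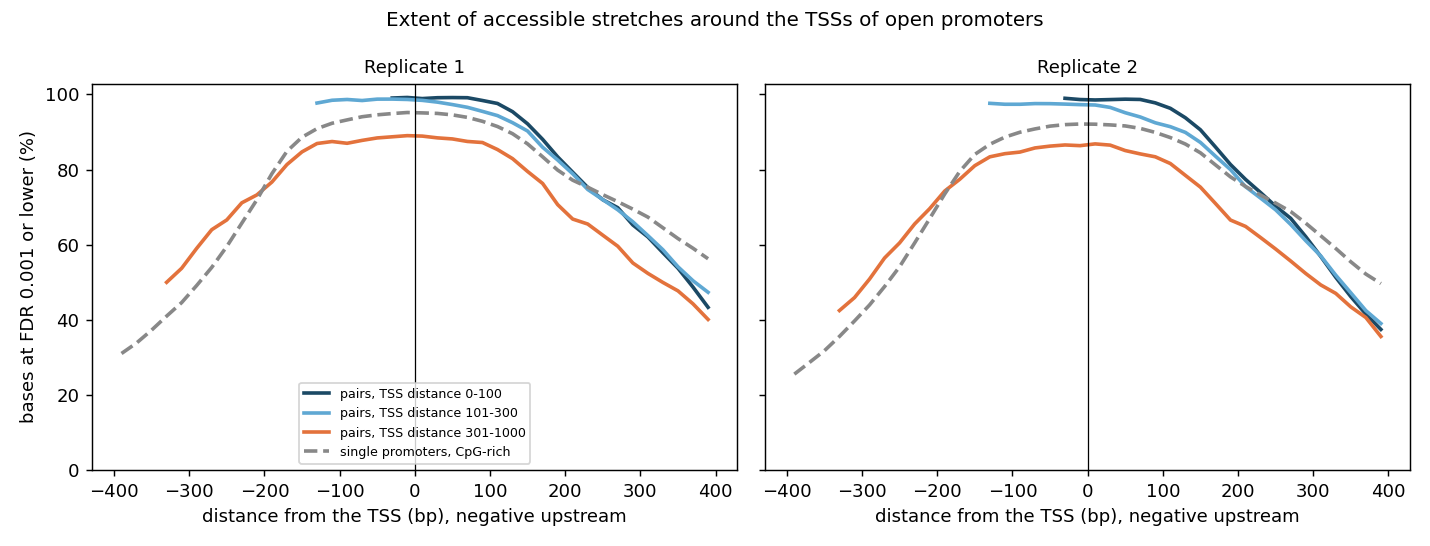
Lines give the percentage of bases at an FDR of 0.001 or lower in bins of 20 bp by distance from the TSS, for open pairs in 3 classes of TSS distance and for open CpG-rich single promoters. Pair lines end upstream at the midpoint between the TSSs, and bins of under 1000 bases are left out. Pairs up to 300 bp apart lie above the single promoters at the TSS and below them from 240 bp downstream on.

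Over whole regions, footprints were denser at pairs than at single promoters. The windows differ: a pair region holds 2 TSSs, and a single promoter window 1 TSS with 328 bp upstream of it. Pair regions held 11.01 footprints per kb in replicate 1 and 10.5 in replicate 2, against 4.73 and 4.34. The ratio was 2.38 ± 0.0731 (mean and SD, n = 2). Among open regions the densities were 11.6 and 11.1 per kb at pairs and 9.17 and 8.63 at single promoters. Within the CpG-rich class, open or not, they were 12.0 and 11.6 against 9.59 and 9.15. At least 1 footprint found in both replicates lay in 688 pair regions (93.6%), against 51.2% of all promoters, 43.9% of single promoters and 85.8% of CpG-rich ones. An open pair had a median of 4 such footprints and at most 12, and 12 open pairs had none. Shared footprints covered 15.4% of the bases of open pair regions and 10.9% of those of open single promoters.

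Footprints lay mostly between the TSSs and in the first 100 bp downstream of them, at similar densities. The gaps of open pairs held 15.6 and 15.2 footprints per kb, the first 100 bp downstream of the TSSs 14.7 and 13.8, and the next 100 bp 4.62 and 4.46. At open CpG-rich single promoters the first 100 bp upstream held 17.8 and 17.5. The gap taken as a whole was thus not denser than the core of a CpG-rich single promoter. Downstream, these single promoters held 14.1 and 13.6 in the first 100 bp and 4.99 and 5.28 in the next, near the densities at pairs. At pairs the density between the TSSs fell with the length of the gap. It was 22.2 and 23.3 per kb in gaps up to 100 bp, 20.5 and 20.1 over 100 to 200 bp, and 18.0 and 17.2 over 200 to 300 bp. In the longer gaps it was 15.4 and 15.1, then 8.75 and 7.73. Most shared footprints, 12 each, were found at Fiz1/Gm44973, Nlgn2/Tmem256, Aldh6a1/Lin52 and Mms19/Ubtd1, and 11 at Cep170/Sdccag8. Their TSSs are 418 to 799 bp apart, so these are also among the longest regions. Mms19 acts in the assembly of iron-sulfur proteins, many of them DNA repair enzymes, and Lin52 is a subunit of the DREAM complex of the cell cycle.

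**Figure D4:**
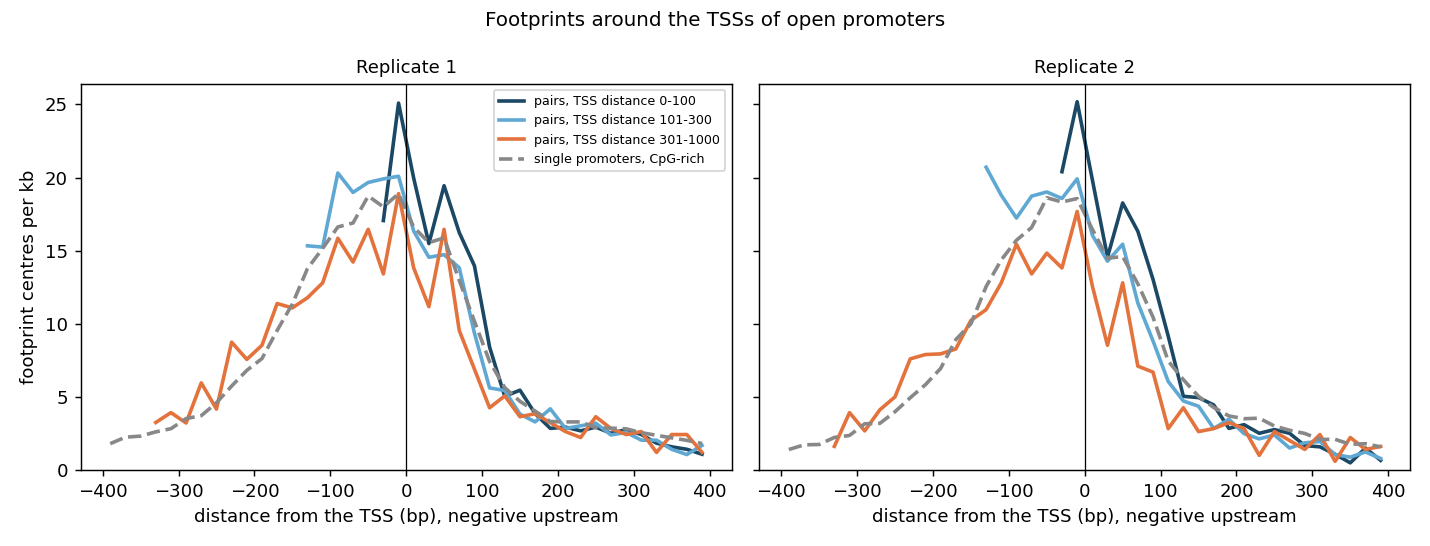
Lines give footprint centres per kb in bins of 20 bp by distance from the TSS, for open pairs in 3 classes of TSS distance and for open CpG-rich single promoters. Pair lines end at the midpoint between the TSSs, and bins of under 1000 bases are left out. The class up to 100 bp apart peaks just upstream of the TSS at 25.1 per kb in replicate 1, where CpG-rich single promoters have 18.9.

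Words of known factors were counted on both strands, in windows of equal length at pairs and single promoters, the length being the median of the pair regions. The windows differ in placement. Those of pairs were centred between the 2 TSSs, and those of single promoters ran from 328 bp upstream to 200 bp downstream of 1 TSS. The part of this in the shares was not tested. A match is a description of the letters and not evidence of a bound site. The GC box GGGCGG, bound by the SP and KLF families, was found at 79.5% of pairs and 47.2% of single promoters, but at 83.9% and 85.8% of the CpG-rich ones. The ETS family word CCGGAAGT was found at 15.8% of pairs and 4.34% of single promoters, and within the CpG-rich class at 16.9% and 8.76%. CGCATGCG, the centre of the NRF1 palindrome, had 6.80% and 2.27% (CpG-rich, 7.67% and 4.92%). AAGATGGC, from the YY1 site, had 11.3% and 3.97% (CpG-rich, 12.5% and 6.28%). CTCGCGAG, the centre of a palindrome bound by ZBTB33, had 4.35% and 1.13% (CpG-rich, 4.69% and 2.69%). Within the CpG-rich class these 4 words, the ETS word included, were thus still found at a larger share of pairs.

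The CREB and ATF site TGACGTCA had 5.03% and 2.30%, and its shorter part TGACG, which the full site contains, 53.9% and 28.8%. The E2F word TTCCCGCC had 8.16% and 3.94%, and ACTACAA, from the ZNF143 site, 7.21% and 5.86%. The CCAAT box had 53.5% and 51.4%, and within the CpG-rich class 53.7% and 45.8%. The E-box CACGTG had 14.7% and 10.2%, but 15.2% and 15.9% within the CpG-rich class. Over all promoters only 2 of the 13 words were found at a smaller share of pairs than of single promoters. These were TATAAA, the TATA box, with 6.80% and 21.2%, and TGANTCA, the AP-1 site, with 6.26% and 11.5%. Within the CpG-rich class TATAAA had 5.63% and 8.98%, whereas TGANTCA had 6.26% and 5.69%.

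The words also differed in how often they coincided with a footprint of both replicates. At open pairs 46 of 56 NRF1 words did, and at open single promoters 290 of 343. For TGACGTCA the counts were 34 of 39 and 225 of 292, and for CTCGCGAG 17 of 34 and 74 of 173. The ETS word lay in a shared footprint 58 times of 135 at pairs, the GC box 754 of 1688, CCAAT 179 of 791, and AAGATGGC 20 of 93. Of 54 TATAAA words 10 did. For the shorter TGACG the counts were 248 of 716 at pairs and 1295 of 4502 at single promoters. The NRF1 word and the full site TGACGTCA were thus in footprints more often than not at both kinds of promoter, and the CCAAT, TATA and TGACG words mostly were not.

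Gene groups were followed through pairs with at least 1 member. In the DNA repair and replication group 32 of 33 pairs were open, near the 95.2% of all pairs, and the other had a peak in 1 replicate. Their median signals were 8.47 and 6.995, beside 7.83 and 6.76 over all pairs. Atm/Npat, of the DNA damage kinase ATM and the histone gene coactivator NPAT, had 14.5 and 13.4, and Abhd12/Gins1, with a subunit of the replicative helicase complex, 13.3 and 10.1. The lowest was Pinlyp/Xrcc1 with 1.13 and 0.703. In the group of mitochondrial ribosome, respiratory chain and import genes 43 of 44 pairs were open, with medians of 7.91 and 6.92. Wdr4/Ndufv3, of a tRNA methylation subunit and a subunit of complex I, had 15.2 and 9.84. Mrpl49/Fau, of 2 ribosomal genes, one of the mitochondrial and one of the cytosolic ribosome, had 13.3 and 11.5 and 9 shared footprints. Uqcrq/Gdf9, with a subunit of complex III, had 13.7 and 10.2. The RNA processing group had 36 of 37 open and medians of 9.91 and 7.44, the highest of these groups in replicate 1 but not in replicate 2. Hnrnpa2b1/Cbx3, of an RNA-binding protein and a heterochromatin protein, had 13.2 and 13.1. In the translation group 19 of 20 pairs were open, with medians of 6.78 and 7.80. Rpl36al/Mgat2 had 15.8 and 11.8, and Atp6v1d/Eif2s1 12.2 and 11.4. The shares of open pairs in these 4 groups were all close to that of all pairs. No pair held a gene of the list of bladder compartments.

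Histone pairs stood apart from these by their low signals. Of 14 pairs with a histone gene, 13 of them with a histone gene on both sides, 11 were open and 3 had no peak. The open ones had medians of 2.43 and 2.25, and ranged from 1.37 to 5.25 in replicate 1 and from 0.927 to 3.39 in replicate 2. Hist1h2bf/Hist1h2ad was the highest, with 5.25 and 3.33, followed by Hist1h2an/Hist1h2bp with 3.87 and 3.39 and Hist2h2ac/Hist2h2be with 3.54 and 2.57. All 11 lay below the median of all pairs in both replicates. Most of these genes encode H2A or H2B, core histones made in bulk as DNA is replicated. Hist1h2bq/Hist1h2ao and Hist1h2ap/Hist1h2br, both without a peak, are identical over their full 669 and 637 bp to another place in the genome. All 11 open histone pairs also have shorter copies elsewhere. The longest copy measured from 149 bp at Bola1/Hist2h2ab to 214 bp at Hist1h2ak/Hist1h2bn. The sources used here do not say how reads of such copies were placed, and the part of this in the low signals was not tested. Hist1h2ba/Hist1h2aa, which encode testis variants, also had no peak, and no copy of their region was found. Over all pairs 50 regions had a copy of at least 95% identity over 100 bp or more, of which 43 were open, and 657 of the 685 without copies were open.

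Of 21 pairs of the kind that textbooks and reviews use as examples of bidirectional promoters, 9 met the rule and all 9 were open, beside 95.2% of all pairs. Mcm4/Prkdc, of a subunit of the replicative helicase and the catalytic subunit of DNA-PK, had 10.4 and 9.19, with a peak at each TSS in both replicates. Gart/Son, of a purine synthesis enzyme and a splicing protein, had 7.80 and 7.47, from different peaks. The peak at the Gart TSS had 7.80 and 6.74. The peak of 7.47 lay downstream of the Son TSS, and a peak there touched the region in replicate 2 only. Mrps12/Sars2, both of mitochondrial translation, had 6.21 and 7.80 in a peak downstream of the Sars2 TSS. The peak over both TSSs had 6.04 and 4.66. Brca1/Nbr1, of the homologous recombination protein BRCA1 and an autophagy receptor, had 6.40 and 4.51, with the peak on Brca1 alone in replicate 1 and a second, weaker peak of 2.48 at Nbr1 in replicate 2. Wrap53/Trp53, where Trp53 encodes the tumour suppressor p53, had 5.12 and 4.31. The lowest was Col4a4/Col4a3, which encode chains of basement membrane collagen IV found in kidney glomeruli, with 0.729 and 0.632. This was below the median of open single promoters in both replicates, and the region had 2 shared footprints, none of them in the gap of 71 bases.

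The 29 pairs without a peak were mostly CpG-poor. Only 7 were CpG-rich, and none had a footprint in either replicate. Those with the closest TSSs were Best1/Rab3il1, Rnf151/Rps2, 4930430F08Rik/1700017N19Rik, Ddx25/Pus3, Dgcr2/Tssk2, Il11/Tmem190, Ccnt1/4930415O20Rik and Patl2/Terb2, at 36 to 83 bp. Ddx25 encodes a testis RNA helicase, Tssk2 a testis kinase and Terb2 a meiotic telomere protein.

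At 16 of the 29 pairs, however, a gene had another annotated TSS with a peak of both replicates within 200 bp, at 443 to 126230 bp from the most upstream one. With the TSS required to lie inside a peak of both replicates, there were 9 such pairs. The single promoters without a peak also rest on the most upstream start, and this count was not made for them. Some of the peaks were weak, as at Fam217a with 0.276 and 0.312, and the genes named next had stronger ones. Rps2, a protein of the small ribosomal subunit, was open at a TSS 1947 bp away with signals of 11.7 and 9.27. Ccnt1, the cyclin T1 of the elongation factor P-TEFb, was open 3243 bp away with 14.9 and 13.5. Dgcr2 was open 6869 bp away with 15.1 and 9.79, and Trim28, a corepressor of zinc finger proteins, 25038 bp away with 5.69 and 7.34. Ndufa5, a subunit of complex I, was open 443 bp away with 6.54 and 4.19, Nt5c3b 719 bp away with 4.13 and 3.71 and Rab3il1 16524 bp away with 4.74 and 4.80. The most upstream annotated start, on which the pairs are built, was at these genes not the accessible one. The other 13 pairs had no TSS of either gene near a shared peak.

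Of the 6 pairs with a peak in 1 replicate, none had a signal over 1. Tssk3/Fam229a had 0.727 and Rad51c/Tex14 0.496, both in replicate 2 only. Fbxo44/Fbxo2 had 0.692, Sirt1/Dnajc12 0.604, Sncg/Mmrn2 0.396 and Nr2e1/Ostm1 0.390, in replicate 1 only. Here too some genes had a shared peak at another start. Rad51c, a recombination protein, was open 431 bp away with 8.25 and 7.20, Fbxo44 388 bp away with 6.60 and 4.48, and Sirt1, an NAD-dependent deacetylase, 42669 bp away with 5.56 and 5.49.

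The replicates ranked the open pairs much alike. Across the 700 pairs, which are not independent replicates, the Pearson correlation of the log2 signals was 0.959 and the Spearman correlation 0.944, given as a description. After each library's signals were divided by their median over all shared regions, the log2 ratio of replicate 1 to replicate 2 had a median of -0.15 and an SD of 0.24, against an SD of 0.42 over all 71323 shared autosomal regions and 0.33 over open single promoters. The sign of the median depends on the scaling: it was 0.25 on the deposited values and 0.61 after division by the median over all peaks. The ratio lay within 0.5 of 0 at 646 pairs (92.3%), against 85.5% of single promoters. After this scaling it exceeded 1 in size at 3 pairs, all higher in replicate 2. On the deposited values it ranged from -0.65 to 1.07 and exceeded 1 in size at Stap2/Mpnd alone, higher in replicate 1, so the direction of the extremes also depends on the scaling. Grik5/Zfp574 had 0.771 and 1.21, Exosc8/Alg5 4.04 and 6.24, and Tepsin/Ndufaf8 7.79 and 12.0. Dram1/Gnptab followed with 3.49 and 5.25 and Ccnb1ip1/Parp2 with 7.68 and 10.6, while 599 of the 700 pairs had the higher deposited signal in replicate 1.

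**Figure D5:**
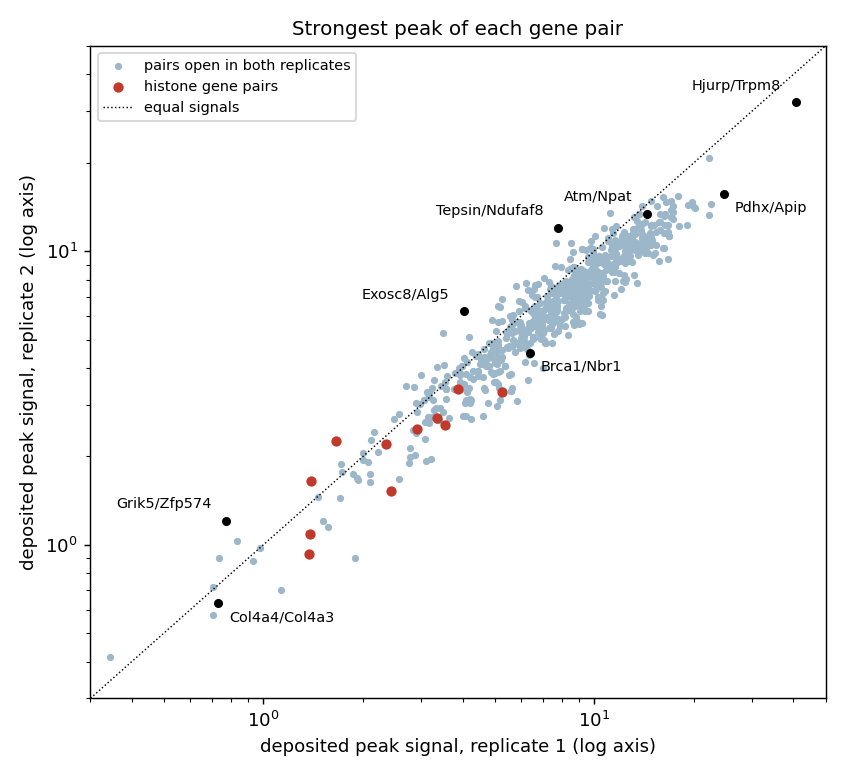
Each point is a gene pair open in both replicates, placed by the deposited signal of its strongest peak in replicate 1 (x) and replicate 2 (y), both on log axes. Histone pairs, in red, lie between 0.927 and 5.25, Hjurp/Trpm8 is highest with 40.7 and 32.1, and Exosc8/Alg5 and Tepsin/Ndufaf8 lie above the line of equal signals.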

How the data were processed

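Bladder chromatin was profiled by DNase-seq in 2 libraries, put in 1 group. The deposited peak lists give positions and a signal, the authors' own density per peak, called per library and not on pooled reads, per the deposited notes. Stretches of positions with an FDR of 0.05 or lower, a q-value computed by the authors, are given in the deposited track. The deposited footprints carry 1 constant other value and were used as positions. Aligner, callers and scaling: not given in the sources used here. No count table or absolute depth was used.

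TSSs came from GENCODE M21 and bases from the RefSeq assembly GRCm38.p6. Peaks were counted where they touched a region, footprints where their centre lay in it, and no pseudocount was used. Footprints of the replicates were shared where they overlapped by at least 1 bp. Promoter sequence was read with pysam 0.24.0, and copies were found with blastn. Other tools were Python 3.11.15, numpy 2.4.6, pandas 2.3.3 and matplotlib 3.10.9. The counting of pairs, peaks, footprints and layouts was tested on simulated data.

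The members, gene lists, motif words and named pairs were chosen with earlier results of these data known, a few gene names were taken off the lists after matching, and 4 long motif words were shortened to their cores and 2 dropped after their counts were seen. Named pairs were the 8 strongest, the 8 closest without a peak, the 5 with most shared footprints, the 5 strongest in 1 replicate, the 5 largest replicate ratios, the 5 strongest with separate peaks, the textbook pairs and up to 3 open and 3 closed pairs of each list. Ifit1bl2/Ifit1, Pinlyp/Xrcc1, Nr2e1/Ostm1, Stap2/Mpnd and the pairs of Trim28 and Nt5c3b were named after their values were seen. Some of the pairs that this rule names are not reported here. Alternatives were other peak lists, overlap rules, flanks, distances, TSS sources, windows, CpG-rich promoters, FDR thresholds, scalings and each replicate alone.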

Additional observations from a re-analysis of the deposited data

How the results depend on the processing

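Over 73 alternatives for 8 results, 50 stayed within a set limit. The limit was the SD between replicates or 1.5 times a count. Counts near their ceiling, 700 of 735 open pairs and 11 of 13 words at a larger share of pairs, cannot rise by that factor. For the replicate ratio it was the wider SD of 0.24 over the open pairs. The counts have no direction that could change. Among the other results it changed only for the replicate ratio. Its median of -0.15 became 0.25 without scaling and 0.61 with division by the median over all peaks. The excess of pairs over single promoters in open share, 45.2 percentage points for both replicates together, was 48.9 with the stricter peaks, 50.8 with the stronger 50% of peaks and 5.92 among CpG-rich promoters. The signal ratio of 1.80 was 1.62 and 1.54 with those peak sets, 1.74 with peak centres inside the region, 1.76 and 1.86 with flanks of 100 and 500 bp, and 1.46 among CpG-rich promoters. The footprint ratio of 2.38 was 2.50 for pairs up to 500 bp apart, 2.54 over windows of 500 bp upstream to 200 bp downstream, and 1.26 among CpG-rich promoters. The difference in FDR coverage, 48.7 percentage points, was 46.0 and 39.8 with the 2 flanks, 53.0 up to 500 bp, 50.1 over the longer windows, 46.8 at an FDR of 0.05 and 17.3 among CpG-rich promoters. Of the single words, the GC box (83.9% of pairs against 85.8%), the E-box (15.2% against 15.9%) and the AP-1 site (6.26% against 5.69%) changed direction within CpG-rich promoters. The cause was not tested. With 1 replicate left out, a region was open where the remaining replicate alone had a peak. The open share difference was then 40.9 to 44.6, the open pairs 702 to 704 and the pairs under 1 peak 399 to 430. The footprint ratio was 2.33 to 2.43 and the coverage difference 48.1 to 49.4. The signal ratio was 1.87 to 2.04, over other regions than the 1.78 and 1.83 for regions open in both replicates. No paired analysis was possible because the 2 libraries form 1 group. The absolute depth is unknown, so a region without a peak is one in which none was detected at this depth.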
